A study of Mus musculus with 7 samples.

Results

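The SoxF genes are the 3 mouse genes Sox7, Sox17 and Sox18, which were followed here through open chromatin maps of endothelial cells from the retina. Open regions were taken from the peak list of each of 2 cell groups wherever they overlapped the gene body extended by 50 kb on both sides, and this gave 80 of 606661 early G1 peaks and 48 of 383721 late G1 peaks. The 3 genes were compared with all 21938 protein-coding genes treated by the same rule. Retinas came from mice of the FUCCI reporter genotype at postnatal day 6. FUCCI is a fluorescent reporter that colours cells by cell cycle phase, and both groups carried it. Collagenase-dissociated living cells were sorted for CD31, a surface protein of endothelium, and against CD45, which marks leukocytes. Sorted cells with no reporter fluorescence made up the early G1 group (3 libraries), and red cells made up the late G1 group (4 libraries). Chromatin was profiled by ATAC-seq, in which a transposase cuts and tags accessible DNA. The labels do not say how many animals each library held or whether libraries came from separate animals. The libraries of a group were pooled before peaks were called, so each group has 1 value per gene, no replicate error can be given, and no test between the groups is possible. Phase and pool cannot be told apart.

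SoxF proteins are transcription factors with an HMG box, a domain that binds the minor groove of DNA and bends it. In blood vessels the 3 members act with partly overlapping roles: Sox17 is best known for arterial identity, Sox7 for early endothelial and arterial programmes, and Sox18 for vessel integrity and, through Prox1, for the start of the lymphatic lineage. In the retina SoxF genes act downstream of VEGF and of norrin, the ligand of the receptor Fzd4, and they work with the Notch pathway factor Rbpj at enhancers of arterial genes.

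For each of the 3 genes the sequence at the centre of its strongest distal late G1 peak, by score, is shown. Sox7 lies on chromosome 14 (mm10, 63943673 to 63950732, plus strand). Its strongest distal late peak (63978018 to 63978750) was 34.3 kb downstream of the gene start, in an intron of 4930578I06Rik. Sox17 lies on chromosome 1 (4490931 to 4497354, minus strand). Its strongest distal late peak (4509048 to 4509442) was 11.7 kb upstream in intergenic sequence. Sox18 lies on chromosome 2 (181669836 to 181671640, minus strand). Its strongest distal late peak (181712735 to 181713199) was 41.1 kb upstream, 1817 bp before the start of Oprl1, an opioid-related receptor gene. The last sequence is from the late peak just upstream of the Sox17 start and was added after its values were seen. Each is the central stretch of 300 bases on the plus strand, and capitals mark every match to the 10 motif words listed further on.
Sox7 distal, chr14:63978235-63978534: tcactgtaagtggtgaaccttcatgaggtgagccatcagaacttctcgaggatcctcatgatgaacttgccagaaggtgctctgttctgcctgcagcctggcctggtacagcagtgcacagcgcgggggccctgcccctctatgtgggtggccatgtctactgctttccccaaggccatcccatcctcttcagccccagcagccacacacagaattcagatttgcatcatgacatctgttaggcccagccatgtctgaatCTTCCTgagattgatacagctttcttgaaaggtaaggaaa
Sox17 distal, chr1:4509096-4509395: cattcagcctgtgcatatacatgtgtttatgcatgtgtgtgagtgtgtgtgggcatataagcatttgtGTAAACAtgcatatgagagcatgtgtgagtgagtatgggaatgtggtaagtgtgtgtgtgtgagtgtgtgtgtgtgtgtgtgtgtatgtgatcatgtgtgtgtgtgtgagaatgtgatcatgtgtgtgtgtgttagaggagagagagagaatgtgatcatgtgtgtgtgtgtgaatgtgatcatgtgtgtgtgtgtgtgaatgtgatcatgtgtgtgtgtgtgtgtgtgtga
Sox18 distal, chr2:181712818-181713117: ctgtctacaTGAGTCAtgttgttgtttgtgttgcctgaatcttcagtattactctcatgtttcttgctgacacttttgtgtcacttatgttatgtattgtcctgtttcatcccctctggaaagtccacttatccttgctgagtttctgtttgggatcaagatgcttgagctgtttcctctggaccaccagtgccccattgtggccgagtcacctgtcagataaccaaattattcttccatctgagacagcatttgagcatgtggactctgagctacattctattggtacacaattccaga
Sox17 upstream of the start, chr1:4498126-4498425: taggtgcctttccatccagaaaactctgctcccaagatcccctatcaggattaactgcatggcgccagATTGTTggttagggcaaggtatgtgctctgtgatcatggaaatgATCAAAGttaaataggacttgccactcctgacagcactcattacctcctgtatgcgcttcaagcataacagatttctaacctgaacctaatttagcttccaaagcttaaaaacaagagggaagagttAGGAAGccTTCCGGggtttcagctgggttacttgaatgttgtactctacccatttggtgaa
The Sox17 distal stretch was largely a repeat: 88.0% of its bases are masked as repeats in the reference, and TG pairs made up 59.3% of all its bases. Masked bases made up 0.0% of the Sox7 stretch, 7.0% of the Sox18 stretch and 0.0% of the stretch at the Sox17 start. The stretch at the Sox17 start held 4 of the 7 word matches, namely the SOX word AACAAT (as ATTGTT), the TCF/LEF word CTTTGAT (as ATCAAAG) and the ETS words AGGAAG and CCGGAA (as TTCCGG). The Sox7 stretch held the ETS word AGGAAG, the Sox17 distal stretch the FOX word TGTTTAC and the Sox18 stretch the AP-1 word TGANTCA.

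Early G1 peaks covered 40.5% of the sequenced genome and late G1 peaks 13.3%. Median fold over local background, a value given by the authors' peak caller, was 2.08 in the early and 3.85 in the late list. The pools held 137191808 and 124693948 fragments. Because the lists differ this much in extent, values are read against all genes within the same list. Of all genes 89.6% had an early and 59.0% a late peak within 1 kb of the gene start. Of 10 endothelial marker genes 7 had an early and 3 a late one, both below those shares. Early and late counts were 4 and 3 of 4 astrocyte markers, 5 and 4 of 5 photoreceptor markers, 5 and 3 of 5 pericyte markers, 5 and 2 of 5 neuron markers, 5 and 3 of 5 progenitor and Müller glia markers, and 4 and 3 of 5 blood and microglia markers. Endothelial window shares ranged from 36.7% to 55.6% in the early and from 8.80% to 21.4% in the late list. Among these endothelial markers, Cdh5 and Cldn5 had start peaks of each kind, 5 genes an early one alone, and Tie1 a late one alone. The remaining 2 were Pecam1, which encodes CD31 itself, and Tek, an angiopoietin receptor, with no peak near the start used here. That start is the first base of the whole gene. Other start sites of Pecam1 and Tek were not examined, so a closed promoter cannot be read from this. Start peaks were present for 89.6% and 59.0% of all genes, so counts over a few markers do not tell cell types apart. Markers of other cell types had start peaks in both lists, and the part of other cells in the values below was not tested.

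All 3 SoxF genes had a peak within 1 kb of the gene start in both lists. Such a peak was present for 89.6% of all genes in the early list, 59.0% in the late list and 54.8% in both, so the count of 3 of 3 is near the background in the early list and rests on few genes in the late list. The 2 lists covered each start to different extents and shared bases at each, as the map of the start sites shows. Within 1 kb of the Sox7 start, all 550 bp covered by early peaks lay inside late peaks. At Sox18 all 191 bp covered by late peaks lay inside early peaks. The first base of the gene lay inside a late peak only for Sox7 and inside an early peak only for Sox17 and Sox18. Over all genes it lay inside an early peak in 62.4% and inside a late peak in 32.4%, and these shares include 24.5% with both.

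At Sox7 the early start peak (63941838 to 63943222) ended 451 bp upstream of the gene start and had a pileup of 32.7 fragments, 2.53-fold over background. The late start peak (63942365 to 63943995) ran across the start into the first exon, with a pileup of 29.4 and a fold of 2.69. Of the 2001 bp within 1 kb of the start, early peaks covered 27.5% and late peaks 66.1%, against medians over all genes of 56.8% and 15.4%. Within 1 kb, Sox7 was the only member of the 3 whose start was covered more by the late than by the early list. Within 3 kb this turned, with 2624 bp covered by early and 1631 bp by late peaks.

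At Sox17 a single early peak of 4280 bp (4496439 to 4500718) spanned the start, with a pileup of 32.0 and a fold of 1.98, and covered 95.8% of the start window. The late list had 2 separate peaks there, which together covered 40.6%. The first (4498034 to 4498516) began 680 bp upstream and had a pileup of 136 and a fold of 12.0, higher than 93.9% of folds in the late list. The second (4495762 to 4496845) began 509 bp inside the gene, with a pileup of 45.4 and a fold of 3.90. Sox17 has 7 annotated start sites of coding transcripts, between 4493735 and 4497354. The second late peak held 5 of these start sites, and the early peak held 2. A non-coding transcript on the opposite strand, Gm37587 (4496551 to 4499558), overlaps all 3 of these peaks, and ATAC-seq does not distinguish strands.

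At Sox18 the early start peak (181671591 to 181673051) reached just inside the gene, with a pileup of 27.8 and a fold of 1.87. The late start peak (181672450 to 181673157) lay 810 bp upstream, with a pileup of 28.1 and a fold of 2.57. Early peaks covered 52.5% and late peaks 9.54% of the start window. The late value was the lowest of the 3 genes within 1 kb and the highest within 3 kb, where late peaks covered 2100 bp at Sox18, 1631 bp at Sox7 and 1567 bp at Sox17. Early and late peaks shared bases in the start window of all 3 genes, 550 bp at Sox7, 728 bp at Sox17 and 191 bp at Sox18. They did so for 47.7% of all genes. With only the upper 50% of each list by score, Sox17 alone kept a start peak in both lists, Sox7 kept its early peak and Sox18 kept neither.

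**Figure D1:**
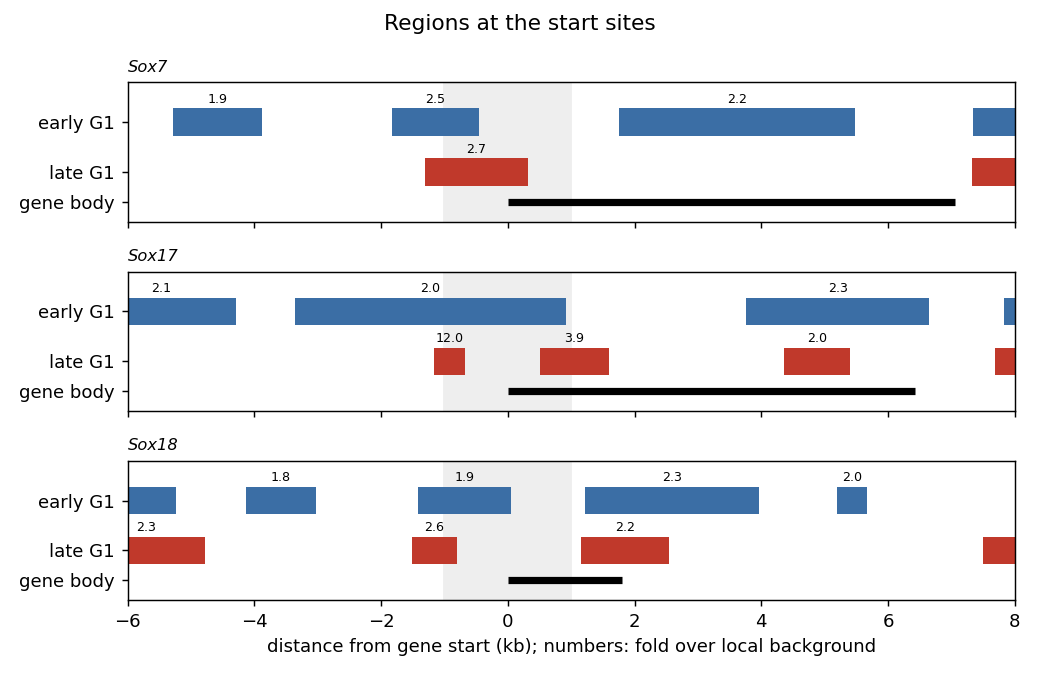
Peaks from 6 kb before to 8 kb after the start of each SoxF gene, drawn to scale along the direction of transcription. Blue bars are early G1 peaks, red bars late G1 peaks, black bars gene bodies, the grey band the window within 1 kb of the start, and numbers the fold over local background. The late peak of 12.0-fold stands just upstream of Sox17, and the other start peaks are below 4-fold.

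Over the whole window, Sox7 was the most widely covered SoxF gene in both lists. In the early list its 29 peaks covered 48848 bp or 45.6% of the window, the 25 peaks of Sox17 covered 41112 bp or 38.6%, and the 26 peaks of Sox18 covered 36429 bp or 35.8%. The median over all genes was 45.3%, and Sox7, Sox17 and Sox18 were above 51.8%, 21.2% and 13.8% of genes. In the late list the 17 peaks of Sox7 covered 24288 bp or 22.7%, the 14 peaks of Sox18 covered 13604 bp or 13.4%, and the 17 peaks of Sox17 covered 12258 bp or 11.5%. The median over all genes was 14.9%, and Sox7, Sox18 and Sox17 were above 95.4%, 36.1% and 21.9% of genes. Sox17 was thus above Sox18 in the early list and below it in the late list, and this order depended on the setting. It was Sox17 above Sox18 in both lists with the upper 50% of peaks and with both lists cut to 191859 top peaks, and Sox18 above Sox17 in both lists with flanks of 20 and of 100 kb. With no replicates the spread around these values is unknown.

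The early list covered more of the window than the late list for each SoxF gene, by 22.9 percentage points at Sox7, 27.1 at Sox17 and 22.4 at Sox18. This held for 99.0% of all genes, with a median of 29.6 points. Relative to the genome share of each list, coverage was 1.13 in the early and 1.71 in the late list at Sox7, 0.955 and 0.865 at Sox17, and 0.884 and 1.00 at Sox18. Medians over all genes were 1.12 in both lists. Some of these places depended on the window or the threshold. With the upper 50% of peaks Sox7 was above 92.4%, Sox17 above 71.6% and Sox18 above 35.3% of genes in the early list. With both lists cut to 191859 top peaks these early values were 98.6%, 69.0% and 65.2%. In the late list Sox7 was above 66.7% of genes with flanks of 100 kb, and Sox18 was above 71.8% with flanks of 20 kb. Among the upper 50% of late peaks, Sox7, Sox17 and Sox18 were above 90.6%, 13.9% and 11.4% of genes.

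**Figure D2:**
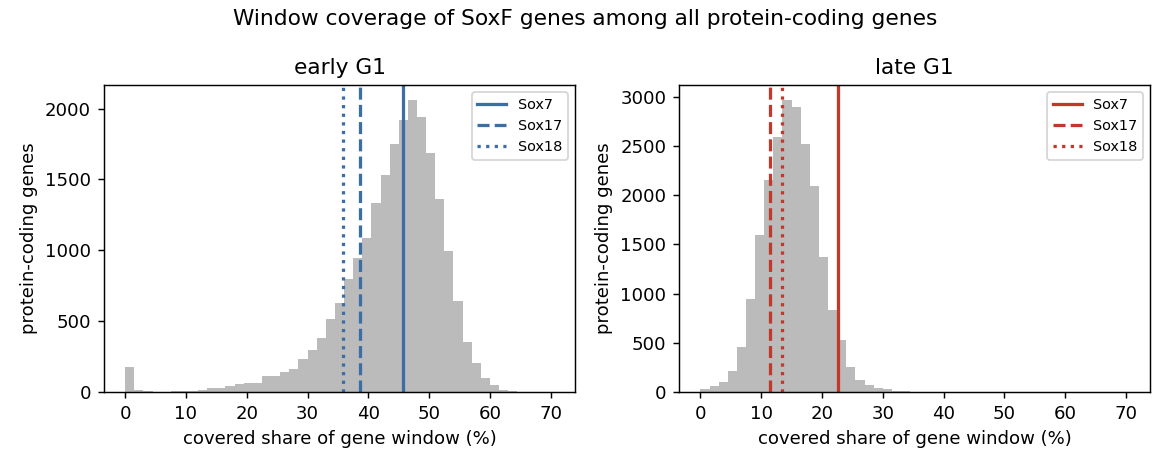
Share of each protein-coding gene's window (gene body with 50 kb on both sides) covered by peaks, in percent, with the number of genes on the vertical axis, for the early G1 (left) and late G1 (right) lists. Vertical lines mark the SoxF genes. Sox7 stands at 22.7% in the upper tail of the late list, and Sox17 and Sox18 stand left of the median of 45.3% in the early list.

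The SoxF genes reached their late coverage by peaks of different shape. Late peaks of Sox7 had a median length of 1485 bp, against 681 bp over the late list, and a median fold of 3.15. Late peaks of Sox17 had a median length of 586 bp and a median fold of 5.79, with a range from 1.97 to 15.3. Late peaks of Sox18 had a median length of 753 bp and a median fold of 2.60. Folds of at least 4 were found for 7 of 17 late peaks of Sox7, 10 of 17 of Sox17 and 4 of 14 of Sox18, against 48.4% of the late list. No early peak of the 3 genes reached that fold, as for all but 0.104% of the early list.

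**Figure D3:**
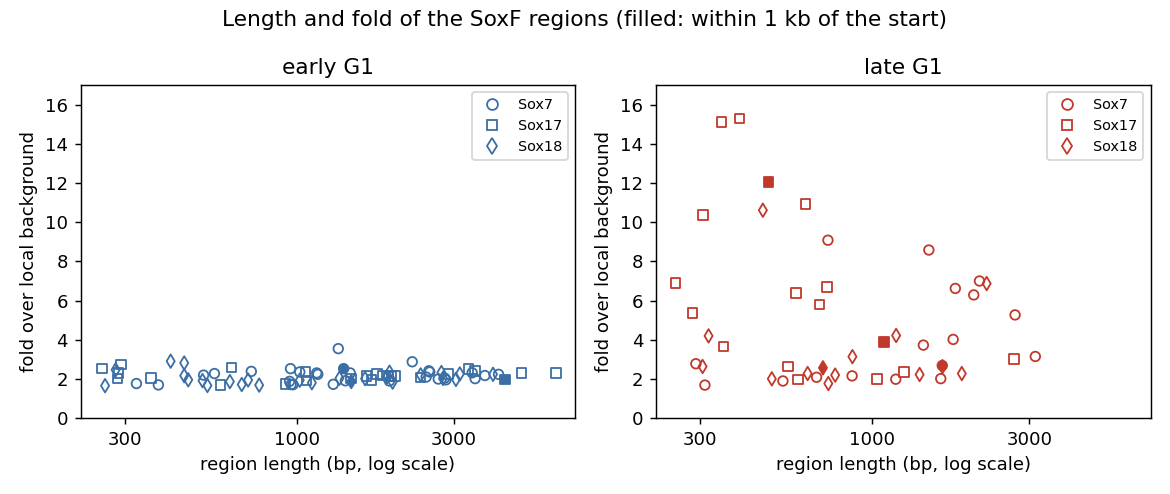
Length (bp, log scale) and fold over local background of every peak in the SoxF windows, for the early G1 (left) and late G1 (right) lists. Circles are Sox7, squares Sox17 and diamonds Sox18, and filled symbols are peaks within 1 kb of a gene start. Early peaks lie between 1.66- and 3.55-fold, and the late peaks above 10-fold are 5 of Sox17 and 1 of Sox18.

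Peaks beyond the start sites made up 77 of 80 early and 44 of 48 late SoxF peaks. In the Sox7 window the early peak with the highest score (63908222 to 63909555) lay 34.1 kb upstream in an intron of Pinx1, a gene for a telomerase inhibitor. Its pileup was 41.9 and its fold 3.55, higher than 99.7% of early folds, and no late peak overlapped it. The next early peak by score (63897679 to 63899916) lay 43.8 kb upstream, also in Pinx1, with a fold of 2.88. Late peaks covered 52.7% of it. Another early peak (63968653 to 63969607) lay 25.0 kb downstream at an exon of 4930578I06Rik, with a fold of 2.53 and no late peak over it.

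The 3 late peaks of Sox7 with the highest scores lay at other places, and each overlapped an early peak of lower score. The peak 34.3 kb downstream whose sequence is shown above had a pileup of 180 and a fold of 9.08. Early peaks covered 52.0% of it. The peak at 63913367 to 63915482, 28.2 kb upstream in an intron of Pinx1, was 2116 bp long with a pileup of 130 and a fold of 7.0. Early peaks covered 52.6% of that one. The peak at 63961803 to 63963287, 18.1 kb downstream in intergenic sequence, had a pileup of 101 and a fold of 8.58, and an early peak covered all of it. Of the 29 early Sox7 peaks 19 were in the upper 50% of the early list by score, against 7 of 17 late peaks in the upper 50% of the late list. Ranks in lists of different length show no change between groups.

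In the Sox17 window no other protein-coding gene has its start, and 21 of 25 early and 12 of 17 late peaks touched no annotated gene. The late peaks with the highest scores were narrow. The peak 11.7 kb upstream had a pileup of 173 and a fold of 15.3. The peak at 4525872 to 4526177, 28.5 kb upstream in an exon of the processed pseudogene Gm7357, had a pileup of 200 and a fold of 10.4. The peak at 4464264 to 4464611, 32.7 kb downstream, had a pileup of 170 and a fold of 15.1. Masked repeats made up 78.7% of the peak 11.7 kb upstream and 72.7% of the peak 32.7 kb downstream, against a median of 24.0% over the late list, and the remaining peak lies in a pseudogene, a near-copy of another gene. The part of repeats and copies in these pileups was not tested. The late peak at 4489034 to 4489659, 7695 bp inward of the gene's first base and beyond its far end, was added after its values were seen. It had a pileup of 122 and a fold of 10.9, and 15.2% of it was masked. The early peak with the highest score in this window (4489236 to 4489527, fold 2.75) lay wholly inside it. The next early peaks by score were 47.3 kb upstream (4544703 to 4548178, fold 2.40) and 43.3 kb downstream (4453455 to 4454086, fold 2.59).

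The Sox18 window is dense in genes, with 5 other protein-coding starts. All 5 of these neighbours, Gm29797, Tcea2, Rgs19, Lkaaear1 and Oprl1, had an early peak within 1 kb of the gene's first base. Only Oprl1 of them also had a late peak there, and a late peak (181689006 to 181689776) lay within 1 kb of another annotated start of Rgs19. A start peak in the early but not the late list occurred for 34.8% of all genes. The early peak with the highest score (181648890 to 181649302) was 22.3 kb downstream at an exon of the splicing factor gene Prpf6, with a pileup of 44.0 and a fold of 2.91. The other early peaks by score were 44.8 kb downstream in an intron of Prpf6 (181626388 to 181626841, fold 2.82) and 8.3 kb upstream at the start of Tcea2 (181679892 to 181682265, fold 2.21). The late peak 41.1 kb upstream had a pileup of 119 and a fold of 10.6. It was followed by 2 late peaks within Prpf6, at 181646402 to 181648626 (fold 6.87) and at 181641901 to 181643081 (fold 4.22). The longest stretch of this window free of late peaks was 23.0 kb, from 41.1 to 18.1 kb upstream of the Sox18 start. It was picked for holding no late peak, and it held 6 early peaks. Over all genes the early list had a median of 24.5 peaks per 100 kb of window, and such stretches were not measured for other genes. By the same rule the longest stretches free of late peaks were 13.5 kb at Sox17 and 11.3 kb at Sox7.

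**Figure D4:**
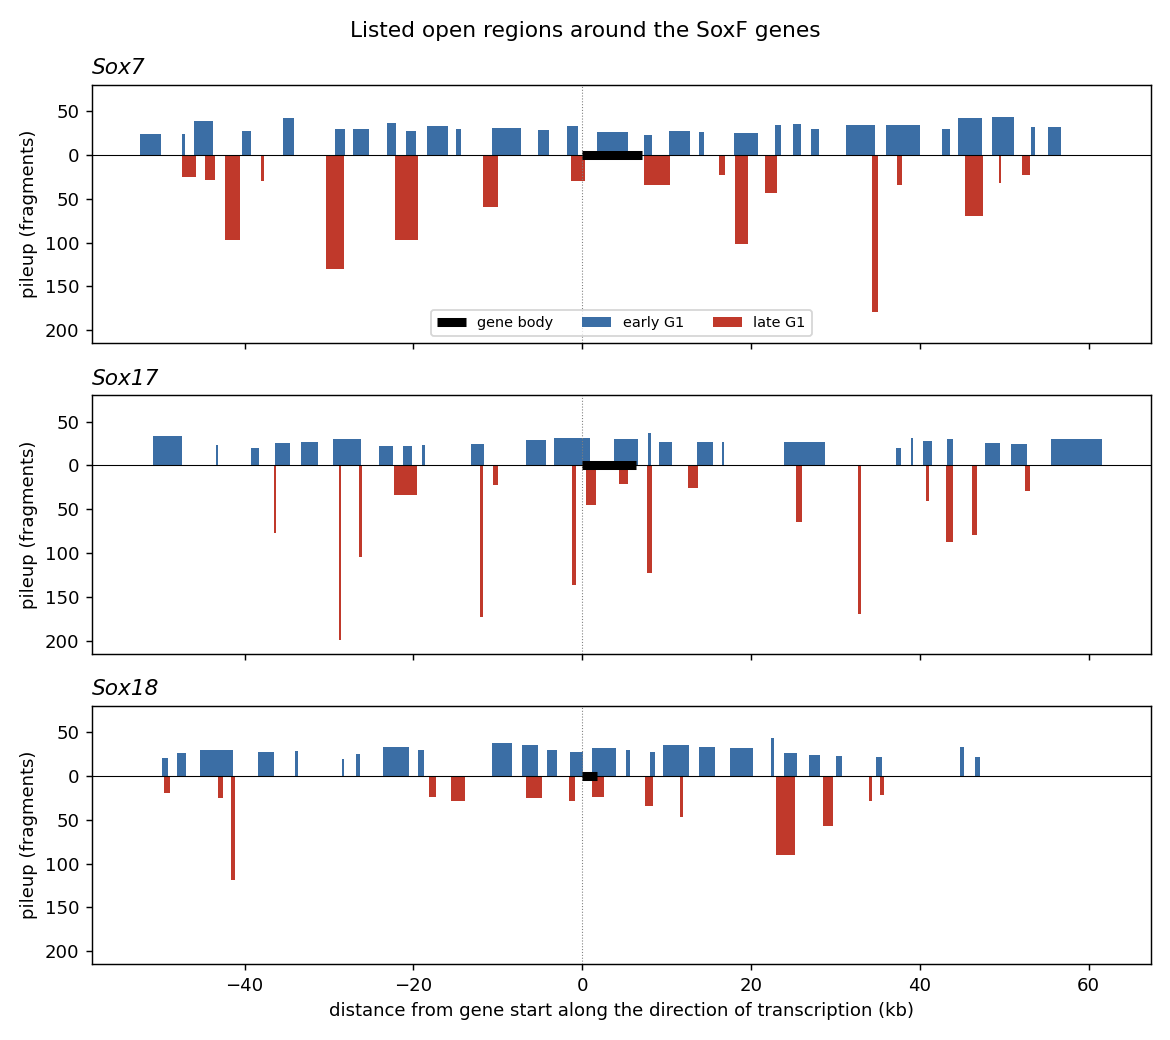
Peaks in the windows of the SoxF genes by distance from the gene start in kb, with negative values upstream. Bar width is peak length and bar height is pileup in fragments, not scaled to depth, with early G1 drawn upward and late G1 downward. Black bars are gene bodies. Late peaks of Sox7 are wide, those of Sox17 narrow with pileups up to 200, and Sox18 has a long stretch without late peaks upstream.

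Most late SoxF peaks overlapped an early peak. This was so for 13 of 17 at Sox7, 14 of 17 at Sox17 and 10 of 14 at Sox18, together 77.1% (95% exact binomial interval 62.7 to 88.0, for counting error only). The share over the whole late list was 66.4%, inside that interval. In the other direction 16 of 29 early peaks of Sox7, 13 of 25 of Sox17 and 9 of 26 of Sox18 overlapped a late peak, together 47.5% (36.2 to 59.0), against 39.4% of the early list. By bases, 47.0% of late coverage at Sox7, 52.4% at Sox17 and 50.5% at Sox18 lay inside early peaks, which was 1.03, 1.36 and 1.41 times the early share of the window. Such a ratio was above 1 for 72.8% of all genes, with a median of 1.12. When each peak had to share at least 50% of its length, 16.7% of late SoxF peaks overlapped an early peak, against 10.7% of the late list. When each list was reduced to its 191859 highest-scoring peaks, 10 of 21 late SoxF peaks did (47.6%), against 23.3% of the reduced late list. Keeping the upper 50% of each list by score gave 14 of 21 (66.7%), against 37.8%. Both shares were above those of the reduced late lists, on few peaks and with no interval computed.

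Motif words were searched on both strands in the central 300 bp of each peak. The words were AACAAT and ACAAAG for SOX factors, CCGGAA and AGGAAG for ETS factors, GTGGGAA for RBPJ, TGTTTAC for FOX, TGANTCA for AP-1, GGGCGG for SP and KLF, and CTTTGAT for TCF and LEF factors, with the MEF2 word as the remaining one. No word contains another. A SOX word was present in 26 of 80 early SoxF peaks, or 32.5% (22.4 to 43.9), against 40.4% of all early peaks, and in 19 of 48 late SoxF peaks, or 39.6% (25.8 to 54.7), against 39.3% of all late peaks. The RBPJ word was present in 11.2% of early (5.28 to 20.3) and 8.33% of late SoxF peaks (2.32 to 20.0), against 5.54% and 5.65% of all peaks. The TCF/LEF word was present in 3 of 48 late SoxF peaks, or 6.25%, against 5.46% of all late peaks. These 3 were in the Sox17 window, and 2 of them were the late peaks at the Sox17 start. For each of the 10 words the share over all peaks of the list lay inside the interval of the SoxF peaks, and a match is a description of letters, not of a bound site. No SoxF peak held the MEF2 word, which was present in 0.352% of all early and 0.343% of all late peaks.

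The layout of coverage within 20 kb of the start was compared among the SoxF genes and with all genes not within 100 kb of the member. Likeness was taken as the mean absolute difference of the covered share in bins of 2 kb over both lists, 40 values per gene. This difference was 27.4 points between Sox7 and Sox18, 29.0 between Sox17 and Sox18 and 34.2 between Sox7 and Sox17. Medians against all genes were 33.4 points for Sox7, 29.2 for Sox17 and 30.6 for Sox18. Of all genes 5.62% were closer to Sox7 than Sox18 was, while 57.8% were closer to it than Sox17 was. Seen from Sox18, 19.2% of genes were closer than Sox7 and 33.2% closer than Sox17. Seen from Sox17, 89.0% of genes were closer than Sox7 and 48.2% closer than Sox18. The genes most like Sox7 were Fam207a (18.6 points), Sdccag8 (18.8) and Mmp28 (19.0). Those most like Sox17 were Ttc16 (15.1), Ptp4a1 (16.1) and Tmem170b (16.8), and those most like Sox18 were Efna1 (17.4), Adgrg1 (17.6) and Sec23ip (18.4).

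Among the 17 other Sox genes, 15 had an early and 9 a late start peak, and those 9 had both. The shares over all genes were 89.6%, 59.0% and 54.8%, near these counts, and the groups below hold too few genes to be read against them. The window share had a median of 47.8% in the early list, with a range from 1.91% at Sry on chromosome Y to 57.8% at Sox9, the factor of glia and cartilage. All 3 SoxF genes were below that median. In the late list the median was 13.6%, with a range from 1.77% at Sry to 23.2% at Sox12, and Sox12 was above Sox7. By group, the SoxC genes Sox4, Sox11 and Sox12 had start peaks in both lists in 3 of 3 cases, as did the SoxB2 genes in 2 of 2, while the SoxB1 genes did so in 1 of 3, the SoxE genes in 1 of 3 and the SoxD genes in 1 of 3.

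Among 17 genes that act with, above or below SoxF factors, 9 had start peaks in the early and the late list, 6 had an early one alone, 0 had a late one alone and 2 had none. Over all genes these shares were 54.8%, 34.8%, 4.21% and 6.24%. Of the reported targets, Notch1, Dll4, Efnb2, Cdh5, Cldn5 and Prox1 had start peaks in both lists, and Vcam1, a leukocyte adhesion molecule, had 1 in the early list only, which covered 38.9% of its start window. Of the genes acting upstream, Fzd4 and the ETS factor Fli1 had both. The VEGF receptor Kdr (the whole start window covered by early peaks), Lrp5, the co-receptor of Fzd4 (65.0%), and the ETS factors Ets1 (38.6%) and Erg (3.05%) had an early start peak only. Of the partners, the Wnt pathway factor Lef1 had both, with 18.3% of its start window covered in the early list and all of it in the late list, and Mef2c had an early start peak only (30.4%). Rbpj and the beta-catenin gene Ctnnb1 had no peak within 1 kb of the gene's first base in either list. Other start sites of these 17 genes were not examined, so a closed promoter cannot be read from a missing start peak. Window shares of these 17 genes had medians of 47.3% in the early and 16.9% in the late list. Sox17 and Sox18 were below both medians and Sox7 was below the first and above the second. At 22.7% Sox7 was also above the highest late share of the 17 genes, 21.7% at Notch1.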

How the data were processed

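The samples were 7 ATAC-seq libraries, 3 early G1 and 4 late G1, grouped by their titles. The submitters' processing notes name Trimmomatic, STAR, bedtools, MACS2 and the mm10 build. The authors merged the fragments of a group into 1 file and ran the broad mode of MACS2 2.2.7.1 on it, per the file headers, with no control, all duplicates kept, q-value cutoffs of 0.05 and 0.1 and a local background over 10000 bp. Pileup is a deposited signal (fragments stacked over a peak, averaged, unscaled for depth). Fold is the deposited enrichment over the local background as MACS2 computed it, and it was not recomputed. Lengths are as deposited. The score is the deposited -log10 q-value, identified from the column order of MACS2 because its heading was damaged, and the 2 columns of p-values, 1 per list, were not used. Keeping duplicates lets copies of a fragment add to a pileup, and broad calling joins neighbouring regions.

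Genes and positions came from GENCODE release M21 on GRCm38, the same build as mm10, and sequences and repeat masking from the RefSeq copy of that assembly. A gene start is the first base of the whole gene. Overlap meant at least 1 bp. All 73 entries of the comparison lists were found by symbol. The RefSeq promoter table used here has no entry for Sox7, Sox17 or Sox18. Named peaks were, per gene and list, those at the start and the 3 distal peaks with the highest score. Masked and GC shares and motif words were computed for every peak. Alternatives were the upper 50% of each list by score, lists cut to the same number of top peaks, flanks of 20 and 100 kb, peaks within 500 bp merged, a start window of 3 kb and a reciprocal overlap of 50%. The members and lists were chosen with earlier results of these data known. Interval and motif routines were tested on simulated data, with 0 wrong among 3000 interval queries and 0 words miscounted. Intervals are exact Clopper-Pearson 95% intervals and cover counting error only. Computation used pandas 2.3.3, SciPy 1.17.1 and NumPy 2.4.6 under Python 3.11.15, with matplotlib 3.10.9 for figures.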

Additional observations from a re-analysis of the deposited data

How the results depend on the processing

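In each alternative run, the early list covered more of the window than the late list at Sox7, Sox17 and Sox18. The median over all genes was also higher in the early list in every such run. It was 14.6% against 7.46% even with both lists cut to 191859 top peaks. Merging peaks within 500 bp left the SoxF counts at 80 and 48, so it joined no SoxF peaks, and it changed none of the values below. With the upper 50% of each list by score there were 46 early and 21 late SoxF peaks, the early minus late differences were 23.5 points at Sox7, 24.9 at Sox17 and 18.4 at Sox18, and the median SoxF coverage relative to the genome was 1.30 in the early and 0.645 in the late list. The overlap of late with early peaks was then 66.7%. With both lists cut to 191859 top peaks the counts were 35 and 21, the differences 16.2, 13.0 and 12.7 points, the relative coverages 1.31 and 0.645, and the overlap of late with early peaks 47.6%. With flanks of 20 kb the counts were 34 and 23, the differences 23.8, 24.6 and 27.4 points and the relative coverages 1.12 and 1.36. With flanks of 100 kb they were 155 and 94, 29.2, 28.4 and 27.4 points, and 1.05 and 1.15. Fewer peaks and other window sizes change counts and shares by construction. A reciprocal overlap of 50% gave 16.7% of late peaks. A start window of 3 kb gave early and late coverage of 2624 and 1631 bp at Sox7, 3916 and 1567 bp at Sox17, and 3248 and 2100 bp at Sox18. No paired analysis was possible because the libraries of each group were pooled into 1 list before deposit, and for the same reason no library could be left out. Depth per library is not given in the sources used here, and the lowest listed pileup was 19.0 in both lists, against mean coverages of 11.03 and 10.28 fragments.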
